A study of Mus musculus with 2 samples.

Results

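The 10 genes described here encode the core enzymes that methylate histone H3 at lysine 9 (H3K9) and the proteins that read or recruit this mark. The writers are Setdb1, Ehmt1, Ehmt2 and Suv39h2, the readers are the HP1 genes Cbx1, Cbx3 and Cbx5, and the recruiting and methyl-CpG binding factors are Trim28, Zfp57 and Mbd1. They were chosen by name, for what their products do, at a time when earlier results of these data were known. For each gene, all CpG cytosines read at least 5 times in both libraries were taken from 5 kb before the 5′ end to the end of the gene in the mm9 annotation of GENCODE. This gave 1191 cytosines of the 2654195 shared by the libraries, with the cytosines of both strands of a CpG counted apart. The promoter is the stretch within 1 kb of the 5′ end, the body is the rest of the gene, and the upstream flank reaches from 5 kb to 1 kb before the 5′ end.

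The cytosines were measured by reduced representation bisulfite sequencing (RRBS), in which MspI, cutting at CCGG, yields short CpG-rich fragments whose cytosines count as methylated where bisulfite left them unconverted. The DNA came from the liver of male mice at 3 months of age, labelled C57BL/6, and was pooled from 3 WT and from 3 KI mice, so that each genotype is 1 library. The KI mice were homozygous for Uhrf1 YP187/188AA, a germline change of the tandem Tudor domain with which Uhrf1 binds methylated H3K9, made in 129/SV-derived R1 cells with a Neo gene inserted in an intron of Uhrf1. The genotype field of the KI sample reads knock out, whereas its title reads KI, and the sample was taken as KI. With 1 library per genotype, the tests below compare 2 libraries and not genotypes, and there is no spread between animals.

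H3K9 methylation and DNA methylation often lie on the same heterochromatin. Setdb1 is brought to retroviral elements and imprinted regions by Trim28, which itself is recruited by zinc finger proteins such as Zfp57, while Ehmt1 and Ehmt2 (also called GLP and G9a) act together as a dimer on H3K9me1 and H3K9me2. The HP1 proteins bind H3K9me2 and H3K9me3, and Mbd1 binds methylated CpGs. Uhrf1 reads both hemimethylated CpGs and methylated H3K9 and brings Dnmt1 to newly replicated DNA, so the comparison asks whether methylation at the genes of this pathway differed when the H3K9 binding of Uhrf1 was mutated. Methylation is given as a level in percent of reads, averaged over cytosines with equal weight, and a change is KI minus WT in percentage points, with a 95% interval that covers counting error only.

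Over the 10 loci the mean level was 22.9% in WT and 22.8% in KI (-0.125 points, -0.624 to 0.374). KI was lower at 210 of the 1191 cytosines, higher at 195 and equal at 786. The mean over all shared cytosines was 45.6% in WT and 42.6% in KI. The sets differ in make-up, as the members' promoters held 674 of their 1191 cytosines. Promoters of all genes held 681423 of the 2654195, and promoter cytosines were mostly near 0. Member cytosines were read less deeply (median 19 WT and 21 KI reads) than all shared cytosines, whose median was 37 in either library. For single cytosines the two-sided exact test of Fisher was used, with p-values adjusted after Benjamini and Hochberg over the whole shared set, and a cytosine was called at an adjusted p under 0.05 with a difference above 25 points. By this rule 1 member cytosine, in the Setdb1 flank, was called lower, and 0 were called higher, where over the genome 1.09% of cytosines were lower and 0.0474% were higher. A cytosine near 0 in WT cannot be called lower, which limits this comparison. Without the limit on size, an adjusted p under 0.05 was reached by 4 lower and 3 higher of the 1191 member cytosines. Over all shared cytosines 2.87% were lower and 0.115% were higher by that rule. At an unadjusted p under 0.05, 22 member cytosines were lower and 12 higher, a threshold at which all shared cytosines were not counted. None of the members' cytosines above 70% in WT, of which there were 263, was under 20% in KI. The paper reports that such falls were also rare among all shared CpGs, so this count does not set the members apart.

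**Figure D1:**
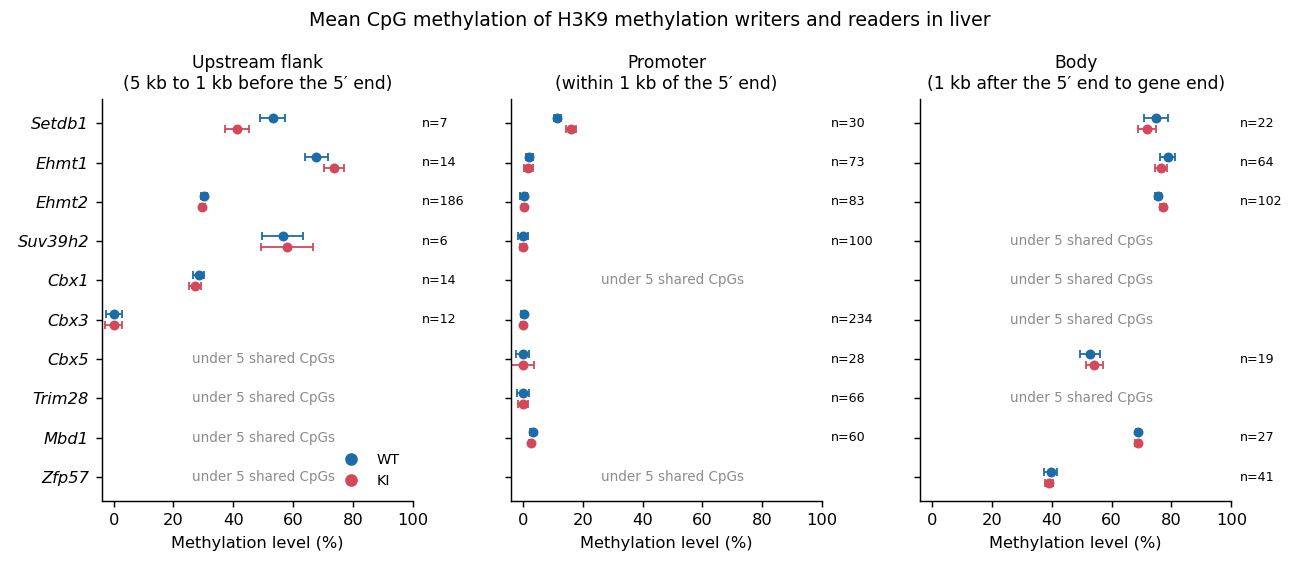
Mean methylation level in percent (x axis) of the upstream flank, promoter and body of the 10 genes, in WT (blue) and KI (red). Points are means over n shared cytosines and bars are 95% intervals of counting error. Promoters lie near 0 except that of Setdb1 (11.6% in WT and 16.0% in KI), bodies lie between 38.9% and 78.7%, and the Setdb1 flank shows the widest gap, 53.2% against 41.3%.

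The promoters were almost free of methylation. The 674 promoter cytosines averaged 1.15% in WT and 1.2% in KI (0.0503 points, -0.578 to 0.679), against 6.90% and 6.50% at the promoters of all genes. No methylated read was found in either library at 631 of them, or 93.6%, against 72.4% of promoter cytosines of all genes. Regions were tested on reads summed over their cytosines by the same exact test and by the Cochran-Mantel-Haenszel test (two-sided) with the cytosine as stratum, adjusted over all genes, and were called only where both passed in the same direction. Of 8 promoters with at least 5 shared cytosines, 1 (Mbd1) was called lower and 0 were called higher, where 7.16% of 16482 promoters were lower and 1.15% were higher. The median change was -0.00673 points over the 8 promoters and -0.0542 points over all promoters. As 1 read can cover several cytosines, the p-values of these tests are too small.

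In the bodies, methylation was high in both libraries. The 276 body cytosines averaged 68.4% in WT and 68.1% in KI (-0.230 points, -1.36 to 0.895), whereas the cytosines of all gene bodies went from 57.2% to 54.5%, a change of -2.64 points. Of 6 member bodies tested, 0 were called lower by both tests, where 35.1% of 15919 bodies were lower and 0.754% were higher, and 35.7% of the 8272 bodies with a like number of shared cytosines (19 to 102) were lower. At an unadjusted p under 0.05 the count by both tests was also 0. It was 2 (Ehmt1 and Zfp57) for the summed reads alone and 1 (Setdb1) for the stratified test alone. All bodies were not counted at the unadjusted threshold, so these counts cannot be set beside the 35.1%. The median change was -0.463 points over the 6 bodies and -1.98 points over all bodies.

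Most member body cytosines were highly methylated. The 185 member body cytosines with a mean of at least 80% over both libraries changed by 0.179 points (-1.02 to 1.38), with 89 lower and 84 higher, while those of all bodies changed by -2.18 points. Of the 185, 81 lie in Ehmt2 (34 lower and 44 higher). Lower against higher cytosines were 23 and 17 in Ehmt1, 12 and 6 in Mbd1, and 10 and 4 in Setdb1. They were 6 and 9 in Zfp57 and 4 and 4 in Cbx5. At 10% to under 50% the 15 member cytosines changed by 0.175 points (-7.55 to 7.90), an interval that holds the -4.68 points of all bodies. At 50% to under 80% the 16 member cytosines changed by -6.40 points (-14.7 to 1.91) and those of all bodies by -6.98 points. The 118 member cytosines within 1 kb of an annotated transcript start changed by 2.03 points (0.560 to 3.49), against -1.18 points in all bodies. This rests mainly on Ehmt2, whose 87 such cytosines changed by 2.35 points (0.884 to 3.81), while the 23 of Zfp57 changed by -0.932 points (-5.40 to 3.53) and the 4 of Ehmt1 by -0.550 points (-8.80 to 7.70). The 3 of Cbx5 changed by 19.5 points (4.37 to 34.7) and the 1 of Cbx3 was at 0 in both libraries. Without Ehmt2, the change over all member body cytosines was -1.24 points. The 158 cytosines farther from any start changed by -1.92 points (-3.55 to -0.282), against -2.90 points in all bodies, a value inside the members' interval. Weighted by reads, the change was -1.44 points for the members and -3.02 points for all bodies.

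**Figure D2:**
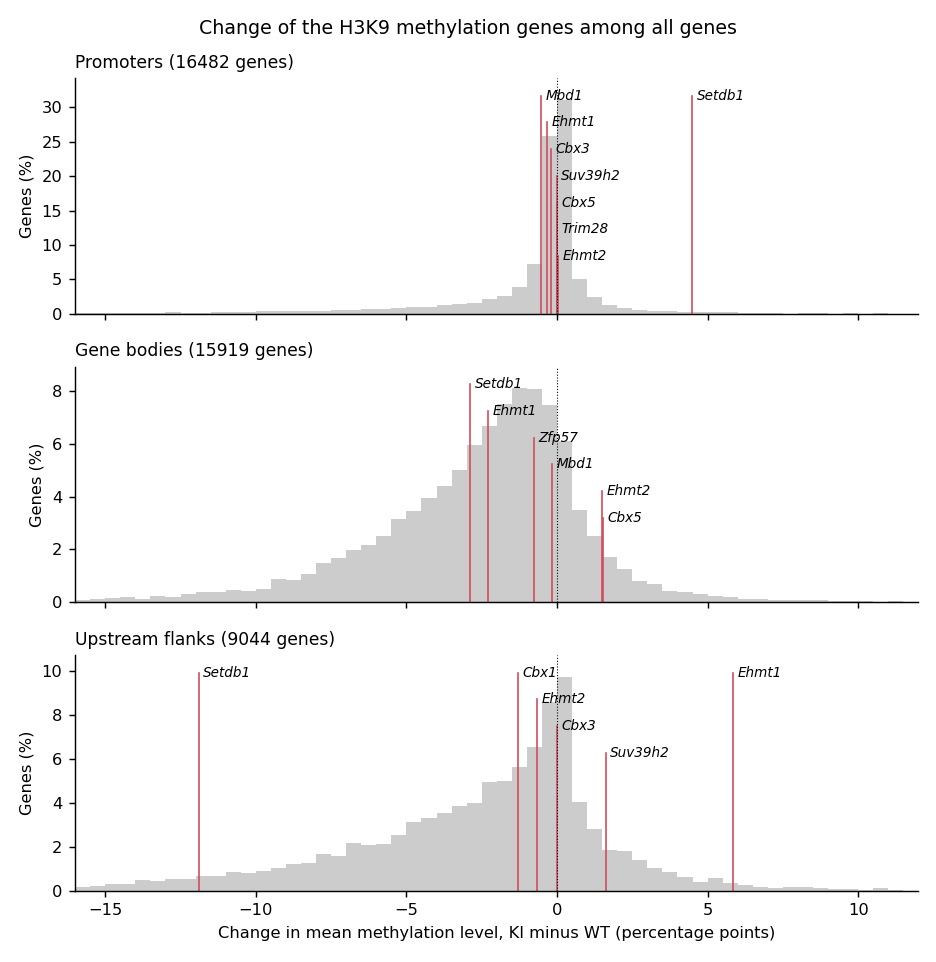
Change in mean methylation level (x axis, KI minus WT in percentage points) of all promoters, gene bodies and upstream flanks with at least 5 shared cytosines, as percent of genes per bin (y axis, grey bars), cropped at both ends. Red lines mark the H3K9 methylation genes. Setdb1 stands apart from the other members in the promoters (4.48 points). In the flanks Setdb1 has the lowest change of the members (-11.9 points) and Ehmt1 the highest (5.86 points). The 6 bodies lie between -2.88 and 1.52 points.

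Setdb1, which trimethylates H3K9 in euchromatin and at retroviral elements, lies on the minus strand of chromosome 3 (95127447 to 95161124) and had 59 shared cytosines of 690 in its locus. Its upstream flank was the only one of 6 tested flanks called lower, and 0 were called higher, where 17.2% of 9044 flanks were lower and 1.13% were higher. The 7 cytosines of the flank, between -1813 and -1336 bp, averaged 53.2% in WT and 41.3% in KI (-11.9 points, -17.7 to -6.10). Of the 7, 6 were lower in KI and 1 was higher. The adjusted p was 0.000867 for the summed reads and 2.5e-07 for the stratified test, and 4.70% of all flanks had a lower change.

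The called cytosine lies in this flank at -1740 bp (chr3:95162864, between genes). It was methylated in 89 of 130 WT reads and in 27 of 77 KI reads, which is 68.5% (exact binomial interval 59.7 to 76.3) and 35.1% (25 to 46.8), with an adjusted p of 0.000412. The other strand of the same CpG, at -1739 bp, had 132 of 210 WT reads and 90 of 181 KI reads methylated. Summed over both strands, 65.0% of WT and 45.3% of KI reads were methylated, and the difference of -19.7 points (adjusted p 0.000154) does not reach the limit of 25 points. At -1646 bp, in a CCGG site, 206 of 226 WT reads and 160 of 200 KI reads were methylated, with an adjusted p of 0.0431. Its other strand had 4 of 153 WT and 3 of 99 KI reads methylated. Over both strands 55.4% of WT and 54.5% of KI reads were methylated. That sum depends on how the reads split between the strands and cannot decide on the difference. The stretch with these cytosines is shown because it holds the only called cytosine of the members. It is given 5′ to 3′ on the strand of the gene with the CpGs shared by both libraries in capitals, and the called CpG is the second in capitals.
Setdb1 flank, chr3:95162760-95162947, minus strand: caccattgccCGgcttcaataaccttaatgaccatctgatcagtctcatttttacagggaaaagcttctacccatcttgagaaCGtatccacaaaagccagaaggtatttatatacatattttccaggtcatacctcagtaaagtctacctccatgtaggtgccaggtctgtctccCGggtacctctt

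The first intron of Setdb1 held higher levels in KI. The 16 cytosines from 666 to 873 bp averaged 21.1% in WT and 29.2% in KI (8.15 points, 4.30 to 12), and 14 were higher, 1 was lower and 1 was equal. The lowest p-values were at 685 bp, with 7 of 97 WT reads and 21 of 91 KI reads methylated, and at 795 bp, with 31 of 99 and 48 of 94. No single cytosine passed the adjusted test, the lowest adjusted p being 0.0922. All 8 cytosines on the plus strand of the genome were higher (22.1% against 32.1%), and on the minus strand, with 23 to 29 KI reads each, 6 of 8 were (20.1% against 26.4%). The 14 cytosines next to the 5′ end, from -210 to -66 bp, averaged 0.649% in WT and 0.937% in KI.
Setdb1 first intron, chr3:95160241-95160468, minus strand, with the shared CpGs in capitals: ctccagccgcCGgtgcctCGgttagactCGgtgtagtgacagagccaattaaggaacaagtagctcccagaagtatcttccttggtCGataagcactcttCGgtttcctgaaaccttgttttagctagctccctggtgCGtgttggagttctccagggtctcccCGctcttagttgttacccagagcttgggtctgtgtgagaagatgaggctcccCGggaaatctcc

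Together these cytosines put the Setdb1 promoter at 11.6% in WT and 16.0% in KI (4.48 points, 2.31 to 6.65), and 98.3% of all promoters had a lower change. The stratified test passed (adjusted p 9.8e-06) and the test on summed reads did not (adjusted p 0.343), so the promoter was not called. The 22 body cytosines, in 2 exonic clusters near 17 kb and 30 kb from the 5′ end, averaged 74.7% in WT and 71.8% in KI (-2.88 points, -7.88 to 2.11). The body also passed only 1 of the tests, here in the direction of loss (adjusted p 0.00355 stratified and 0.177 summed). Of all 15919 bodies tested, 7918 passed the stratified test in that direction. Over the 8 cytosines near 17 kb the level was 70.4% in WT and 66.8% in KI (-3.54 points, -10.2 to 3.07), with 4 lower, 2 higher and 2 equal. The 6 of them in the window from 17 kb to 18 kb were at 79.1% and 72.2%, a mean in which the largest difference, at 17198 bp, rests on 10 WT and 11 KI reads.

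**Figure D3:**
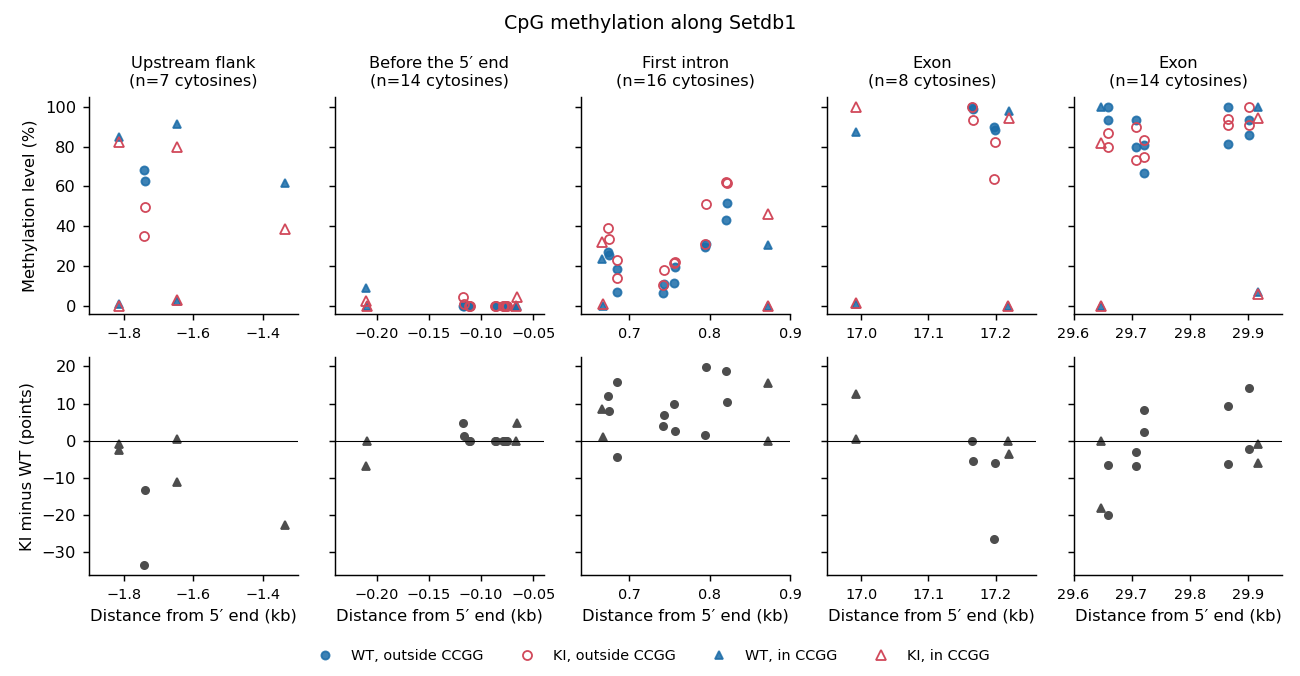
Methylation level of each shared cytosine of Setdb1 in WT (filled blue) and KI (open red), above, and the difference KI minus WT in points, below, by distance from the 5′ end in kb. Triangles are cytosines in CCGG sites and circles are all others. KI points lie below WT points in the flank (6 of 7) and above them in the first intron (14 of 16), while the 14 cytosines just before the 5′ end lie near 0 in both.

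The CCGG sites need a word because their strands read differently. MspI ends are filled in during library construction with unmethylated cytosines, and among the 98 CpG pairs in CCGG sites with both strands shared the higher strand averaged 48.0% in WT and the lower strand 2.63%. Outside CCGG sites, 360 pairs averaged 27.3% and 25.1%. Means therefore include cytosines at CCGG sites that read near 0 in both libraries. A level summed over both strands of such a site depends on how the reads split between the strands. It cannot decide whether the methylated strand differed. Left out, the changes were 8.78 points in the Setdb1 intron and 0.0300 points over the member bodies, and the Setdb1 flank could not be tested as only 2 cytosines remained.

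Ehmt1 (chromosome 2, 24646289 to 24775129, minus strand) encodes GLP, the partner of G9a. Its promoter had 73 shared cytosines at 2.15% in WT and 1.83% in KI, and this small level came from 3 cytosines before the 5′ end, from -839 to -778 bp, at 51.3% in WT and 43.6% in KI. The 70 cytosines inside the gene averaged 0.0397% in WT and 0.0376% in KI. The body, with 64 cytosines, was at 78.7% in WT and 76.4% in KI (-2.28 points, -5.48 to 0.916), and neither test passed. One exonic cytosine at 78836 bp was methylated in 110 of 110 WT reads and in 65 of 73 KI reads, or 89.0% (79.5 to 95.1), with an adjusted p of 0.0224. It lies in a CCGG site whose other strand had no methylated read in either library. Over both strands the adjusted p was 0.134, but that sum depends on how the reads split between the strands. Another exonic CpG, at 78970 bp and outside CCGG sites, was at 98.3% in WT and 87.7% in KI over both strands. This difference of -10.6 points had an adjusted p of 0.00473 in the exact test, while neither strand alone passed.

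The Ehmt1 flank shows how a mean can rest on thinly read cytosines. Its 14 cytosines averaged 67.7% in WT and 73.6% in KI (5.86 points, 0.732 to 11), but the change on summed reads was -2.94 points and neither test passed. The 6 cytosines on the minus strand of the genome, all higher in KI, had 12 to 14 WT reads and 8 KI reads each. The 8 on the plus strand, with 47 to 93 reads, were at 69.1% in WT and 64.7% in KI, and the window from 2 kb to 1 kb before the 5′ end, with cytosines of both strands, was at 68.4% in WT and 74.0% in KI (5.59 points, -0.547 to 11.7). The change of the flank was -4.38 points when at least 10 reads were asked for.

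Ehmt2 encodes G9a, the main H3K9 dimethylase of euchromatin, and lies on chromosome 17 (35035414 to 35050997), as Uhrf1 does. Its locus had 371 shared cytosines, the highest number among the 10 genes. The promoter was at 0.282% in WT and 0.314% in KI over 83 cytosines, with 3 methylated reads of 1447 in WT and 5 of 2263 in KI. The gene starts 17 bp from the 5′ end of C2 on the other strand, and 184 of the flank's cytosines lie in Zbtb12, so that its flank is also the neighbour's gene. In that flank 102 cytosines from -4563 to -3406 bp were near 0 (0.448% in WT and 0.456% in KI), 1 cytosine at -4810 bp had 10 of 17 WT reads and 8 of 12 KI reads methylated, and 82 from -3054 to -1348 bp were methylated (67.3% and 65.7%). The methylated part changed by -1.62 points (-2.99 to -0.246). Within it, the 1 kb window that begins 2 kb before the 5′ end held 24 cytosines at 54.2% in WT and 50.9% in KI (-3.25 points, -6.07 to -0.437), and the whole flank changed by -0.668 points (-1.99 to 0.656), which neither test passed.

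In the body of Ehmt2, 102 cytosines averaged 75.5% in WT and 77.0% in KI (1.5 points, -0.0154 to 3.01), with 41 lower and 51 higher. Neither test passed (adjusted p 0.789 summed and 0.20 stratified), and 92.9% of all gene bodies had a lower change. The 4 cytosines from 1416 to 1571 bp were at 0 in both libraries. The 72 inner cytosines outside CCGG sites were at 92.2% in WT and 93.4% in KI. The stretch from 7 kb to 8 kb had the largest gain in the body, with 25 cytosines at 79% in WT and 83.3% in KI (4.35 points, 1.73 to 6.96), 16 of them higher and 9 lower. The stretch from 14 kb to 15 kb was at 65.4% and 60.3% over 11 cytosines, of which 3 had 5 reads in each library. The 8 better read were at 64.9% in WT and 65.5% in KI (0.605 points, -4.02 to 5.23).

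One exonic cytosine of Ehmt2 at 7024 bp (chr17:35042438) was methylated in 60 of 157 WT reads and in 90 of 153 KI reads, that is 38.2% (30.6 to 46.3) and 58.8% (50.6 to 66.7), with an adjusted p of 0.0191. It lies in a CCGG site, and the other strand of that CpG had 25 of 176 WT reads and 22 of 193 KI reads methylated. Over both strands the CpG was at 25.5% and 32.4% (adjusted p 0.396), values that also depend on how the reads split between the strands. The surrounding exon is shown because the neighbouring CpGs, in capitals where shared, were above 85% in both libraries while this CpG, the second in capitals, was not.
Ehmt2 exon, chr17:35042398-35042516, plus strand: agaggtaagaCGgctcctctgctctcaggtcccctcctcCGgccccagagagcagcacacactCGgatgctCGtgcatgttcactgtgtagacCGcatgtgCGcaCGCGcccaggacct

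**Figure D4:**
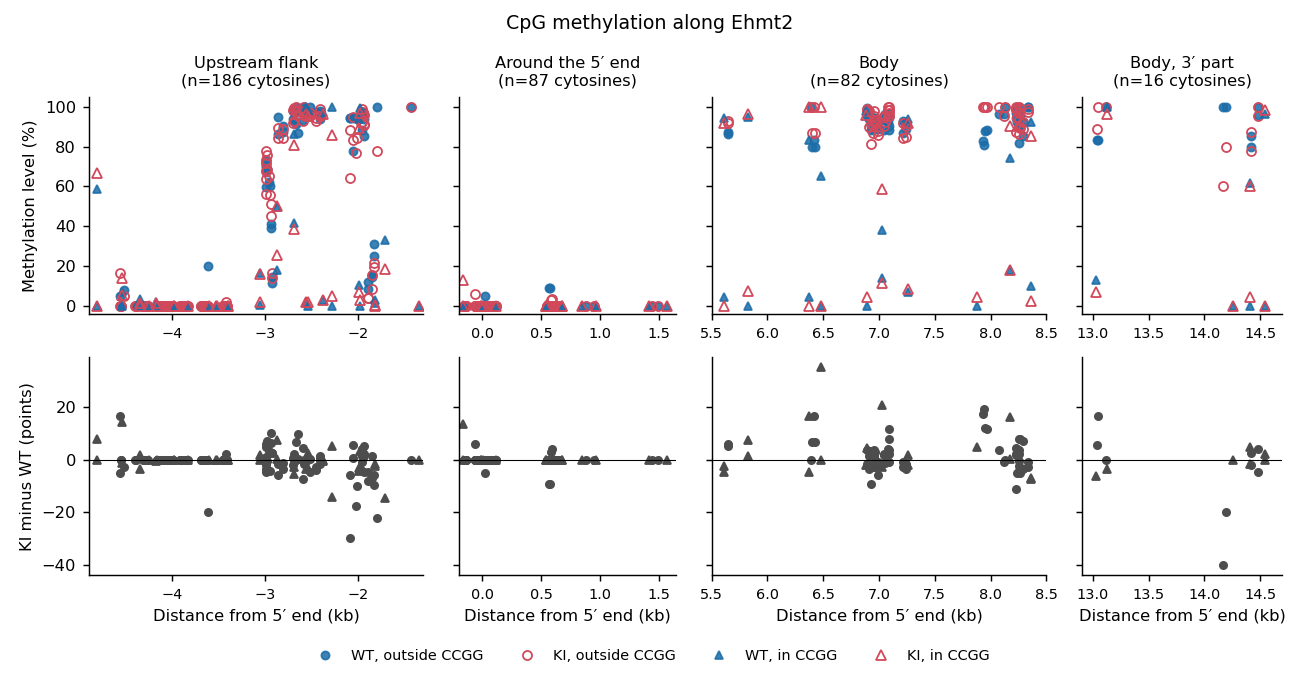
Methylation level of each shared cytosine of Ehmt2 in WT (filled blue) and KI (open red), above, and the difference KI minus WT in points, below, by distance from the 5′ end in kb. Triangles are cytosines in CCGG sites. Levels are near 0 around the 5′ end and from -4563 to -3406 bp, and high in the rest of the flank and in the body, with WT and KI points mixed in each stretch.

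Suv39h2 encodes one of the paired enzymes that trimethylate H3K9 in pericentric heterochromatin. It lies on the minus strand of chromosome 2 (3373087 to 3392303). Its 100 promoter cytosines, from 16 to 501 bp, held 1 methylated read of 1164 in WT and 1 of 1946 in KI, a single read in each. Its 6 flank cytosines were at 56.4% in WT and 58.1% in KI (1.62 points, -9.49 to 12.7) at 15.7 and 17.3 reads per cytosine. No body cytosine was shared.

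The HP1 genes were read mainly at their CpG islands. Cbx3 (HP1γ, chromosome 6, 51420359 to 51433703) had the most shared promoter cytosines, 234, with 4 methylated reads of 5230 in WT and 1 of 5094 in KI, so that 230 of the 234 cytosines had none in either library. Its 12 flank cytosines and 1 body cytosine were at 0 in both libraries. The gene shares its start region with Hnrnpa2b1, whose 5′ end lies 466 bp away on the other strand, and 82 of the cytosines lie in that gene. Part of the island between both starts is shown as an example of these promoters. Its 28 shared cytosines, in capitals as CG, had 0 methylated reads of 947 in WT and 0 of 815 in KI.
Cbx3 promoter, chr6:51420029-51420229, plus strand: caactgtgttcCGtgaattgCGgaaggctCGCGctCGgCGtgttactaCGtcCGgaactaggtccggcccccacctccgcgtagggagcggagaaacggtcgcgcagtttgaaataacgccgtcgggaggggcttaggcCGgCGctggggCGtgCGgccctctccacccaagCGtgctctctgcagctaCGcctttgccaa

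Cbx5 (HP1α, chromosome 15, 103021975 to 103070247, minus strand) had 28 promoter cytosines with 0 methylated reads of 326 in WT, which allows a level of up to 0.920%, and 0 of 177 in KI, which allows up to 1.69%. A count of 0 was taken to allow 3 reads. Its 5′ end lies 698 bp from that of Hnrnpa1. The 19 body cytosines, all but 3 intronic, averaged 52.8% in WT and 54.3% in KI (1.52 points, -2.83 to 5.86). The intronic cytosines near 32 kb were at 66.5% in both libraries, and the 5 between 15 kb and 16 kb were at 45.5% in WT and 39.6% in KI, with 1 lower, 3 higher and 1 equal. That mean rests on the lower cytosine, at 15837 bp, which had 3 methylated of 9 WT reads and 0 of 10 KI reads. The 3 exonic cytosines from 24547 to 24782 bp, next to internal transcript starts, were at 3.33% in WT and 22.9% in KI (19.5 points, 4.37 to 34.7), on 9 to 11 WT and 14 to 15 KI reads each. None of the 3 had an adjusted p under 0.05, and with fewer than 5 cytosines the stretch was not tested.

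Cbx1 (HP1β, chromosome 11, 96650441 to 96669954) had no shared cytosine in its promoter or body, although the promoter holds 113 CpGs and 4 CCGG sites. Its 14 flank cytosines were at 28.4% in WT and 27.1% in KI (-1.29 points, -3.99 to 1.40). They fall into 8 cytosines from -4112 to -3994 bp at 2.87% in WT and 1.3% in KI, and 6 from -1303 to -1156 bp at 62.5% and 61.6%. In the second group, 2 cytosines on the same strand 14 bp apart moved in opposite directions with adjusted p under 0.05. At -1170 bp the level was 94.2% (90.2 to 96.9) in WT and 82.2% (76.9 to 86.6) in KI on 223 and 258 reads (adjusted p 0.00501), while the other strand of that CpG was at 92.4% and 91.4%. At -1156 bp, in a CCGG site, it was 90.1% (85.4 to 93.7) in WT and 97.7% (95 to 99.1) in KI (adjusted p 0.0264). Over both strands the first CpG was at 93.4% in WT and 86.3% in KI (adjusted p 0.0207) and the other at 51.1% and 53.9%, which did not pass. In that CCGG site the other strand had 4 of 178 WT and 3 of 215 KI reads methylated. Its sum therefore depends on how the reads split between the strands. All these differences are below 25 points. In the sequence, shown for this pair of neighbours, they are the last CpGs in capitals.
Cbx1 flank, chr11:96649128-96649295, plus strand: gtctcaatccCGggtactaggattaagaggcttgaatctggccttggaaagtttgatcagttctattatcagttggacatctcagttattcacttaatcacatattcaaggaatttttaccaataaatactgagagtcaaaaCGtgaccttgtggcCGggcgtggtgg

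Trim28 encodes KAP1, the scaffold that brings Setdb1 and HP1 to zinc finger proteins on chromatin. It lies on chromosome 7 (13609501 to 13616384). Its 66 promoter cytosines, from 554 to 992 bp, held 0 methylated reads of 616 in WT, which allows up to 0.487%, and 0 of 886 in KI, which allows up to 0.339%. The flank had 2 shared cytosines with 1 methylated read in all, and the body had none.

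Zfp57 encodes the zinc finger protein that keeps methylation at imprinted regions, and lies on chromosome 17 (37138108 to 37147580). Its promoter was not measured: the 2 kb around the 5′ end hold 19 CpGs and no CCGG, the MspI site, which 82.0% of 32064 promoters hold at least once. The 41 body cytosines averaged 39.7% in WT and 38.9% in KI (-0.764 points, -3.35 to 1.82). They form a gradient. The 15 cytosines from 1634 to 1843 bp were at 1.36% in WT and 0.417% in KI, the 8 from 2055 to 2323 bp were at 22.3% and 21.4%, and the 18 in the exon from 8435 to 8625 bp were at 79.3% and 78.8%. The first of these stretches lies next to most of the 13 annotated transcript starts of the gene. The test on summed reads passed (adjusted p 0.00761) and the stratified test did not (adjusted p 0.580), so the body was not called.

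Mbd1, which couples methyl-CpG binding to Setdb1, lies on chromosome 18 (74427926 to 74442339). Its promoter was called lower in KI, at 3.23% in WT and 2.69% in KI over 60 cytosines. The mean changed by -0.533 points (-1.64 to 0.573), and the level on summed reads went from 12.2% to 6.19%, with adjusted p 6.37e-10 for the summed reads and 0.0398 for the stratified test. Almost all methylated reads came from 4 cytosines of the first intron, from 679 to 888 bp, at 48.4% in WT and 39.1% in KI (-9.27 points, -15.1 to -3.44), all 4 lower. There the levels were 54.5% and 41.3% at 679 bp, 64.0% and 48.9% at 704 bp, 69.6% and 64.1% at 714 bp, and 5.60% and 2.25% at 888 bp, on at least 123 WT reads and 89 KI reads. The 56 cytosines around the 5′ end were at 0 in WT and 0.0907% in KI. The 4 intron cytosines were each read less often in KI than in WT. The 27 cytosines before the 5′ end were read 24.1 times each on average in WT and 49 times in KI, while those from 86 to 240 bp were read less in KI. The fall on summed reads therefore also depends on how the reads split between cytosines. The part of this split in it was not tested. The call was lost with a promoter of 500 bp on each side, with the strands summed, without CCGG sites and with a minimum of 5 points, and it was not made on reads thinned to equal depth.

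The 27 body cytosines of Mbd1, read 174 times each on average in KI, averaged 68.8% in WT and 68.7% in KI (-0.162 points, -1.18 to 0.855). One intronic cytosine at 12408 bp was methylated in 0 of 141 WT reads (up to 2.58% by the exact interval) and in 28 of 142 KI reads, or 19.7% (13.5 to 27.2). The other strand of that CpG had 0 reads in WT and 46 in KI, of which 35 were methylated. Within 2.5 Mb of the gene, 260 of the 4380 CpG cytosines with at least 20 KI reads, or 5.94%, had no WT read at all, against 0.0892% over the genome. No such cytosine lay within 2.5 Mb of any of the other 9 genes. The part of these positions in the Mbd1 values was not tested.

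The other genes of the pathway, from a list of 39 methyltransferases, their partners, demethylases and further methyl-CpG readers, served for comparison. Of 35 with a promoter tested, 2 (Atf7ip and Lrwd1, the latter named after its values were seen) were called lower and 0 higher, with a median change of 0.000 points, where 7.16% of all promoters were lower. Of 33 bodies tested, 9 were called lower and 0 higher, where 35.1% of all bodies were lower, and the median change was -1.79 points against -1.98 points over all bodies. The largest losses among the called bodies were at Phf8, an H3K9me2 demethylase (62.3% to 53.0%, -9.27 points, -14.5 to -4.10), at Atf7ip, the partner of Setdb1 (76.8% to 68.3%, -8.46 points, -13.3 to -3.58), at Trim66 (56.3% to 50.9%, -5.43 points, -7.32 to -3.53) and at Prdm16 (63.2% to 60.4%, -2.84 points, -3.42 to -2.26). Of 11 flanks tested, 2 were called lower, those of Prdm16 and Uhrf1, also named after their values were seen, where 17.2% of all flanks were lower.

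Liver markers checked the tissue. Of 7 hepatocyte genes listed, 2 had a tested promoter and both were called lower in KI, Apob at 43.7% in WT and 31.1% in KI (-12.5 points, -18.8 to -6.32) and Fgb at 39.6% and 26.0% (-13.6 points, -17.2 to -9.95). Of 3 blood genes, 2 promoters were tested and 1 was called lower, that of Cd3e, a gene of T cells, at 65.3% and 48.5% (-16.8 points, -24.4 to -9.14). The bodies of Ttr, a hepatocyte gene (39.3% and 21.5%), and Ptprc, a gene of leukocytes (61.0% and 47.5%), were also called lower. The part of such differences in the values of the H3K9 genes was not tested. Fewer cells of a type and a changed level within cells cannot be told apart in such bulk DNA.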

How the data were processed

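RRBS libraries of liver DNA, 1 pool of 3 WT and 1 pool of 3 KI mice, were analysed. The authors aligned reads to mm9 with Bismark 0.12.20, according to the submitters' processing notes, keeping uniquely mapped reads, and deposited for each cytosine a read count (coverage) and the percent of reads with C and with T. Trimming and the treatment of duplicate reads are not given in the sources used here.

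Methylated reads were recovered as coverage times percent. CpG cytosines were kept where both libraries had read them 5 times or more. Over the libraries 7231934 (WT) and 6452685 (KI) CpG cytosines were listed and 2654195 were shared. Regions with at least 5 shared cytosines were tested, pseudogenes left out, with p-values adjusted over all genes (Python 3.11.15, scipy 1.17.1), and the scripts were checked on simulated data. Since each genotype is 1 pool, the spread between mice is not known. Intervals and limits cover counting error only, since reads were not told apart from PCR copies. The members and the gene lists were chosen with earlier results of these data known. The rule for naming took called cytosines, the 5 windows of 1 kb with the largest losses and the 3 with the largest gains, and the 4 other pathway genes with the largest called change. The other single cytosines, the stretches within genes and the printed sequences were chosen after their values were seen. Alternatives changed the minimum of reads, the weights, strands, CCGG sites, region sizes and tests.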

Additional observations from a re-analysis of the deposited data

How the results depend on the processing

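No paired analysis was possible because each genotype is 1 library. The mean change over member body cytosines was -1.44 points when weighted by reads and -1.92 points without cytosines near another start of the gene, the latter setting chosen after seeing the data. That over promoter cytosines was -0.858 points when weighted by reads, a value that also depends on how the reads split between cytosines. With both strands summed, 1 member CpG was called higher (in Mbd1, where 1 of the strands had no WT read and 46 KI reads), 0 were called lower, and 0 promoters and 0 flanks were called, the Setdb1 flank then holding too few CpGs for a test. Without CCGG sites 1 body (Setdb1, lower), 0 promoters and 0 flanks were called. Over all genes 5995 of 13776 bodies, 1073 of 15258 promoters and 1491 of 6285 flanks were then called lower. The stratified test alone called 1 body (Setdb1, lower) and 2 promoters (Mbd1 lower, Setdb1 higher). Over all genes it called 7918 of 15919 bodies lower and 246 higher, and 1629 of 16482 promoters lower and 247 higher. A minimum of 5 points and a promoter of 500 bp on each side each called 0 promoters. Over all genes the minimum of 5 points called 656 of 16482 promoters lower and 53 higher. The promoter of 500 bp gave 661 of 14503 lower and 142 higher. Thinned to equal depth, the 1 promoter called was that of Setdb1 (higher) in place of Mbd1. Over all genes 949 of 16482 promoters were then called lower and 159 higher. Where no construction of the setting shows it, the cause was not tested. Of 97 alternatives for 20 member region values, 90 moved them by less than the counting interval, 7 by more, and 12 changed the sign. The depth of most members, below that of all shared cytosines, limits what can be seen at single cytosines, and no value here has a check against other animals.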
